A study of Homo sapiens with 3 samples.

Results

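Glycolysis splits glucose into pyruvate in the cytosol, and this account follows the genes that carry glucose into the cell, run that pathway and its regulators, turn pyruvate into lactate, hold pyruvate back from mitochondria, and carry lactate and pyruvate across the plasma membrane. The 35 genes were taken from a list of names with no threshold on a measured value, and 33 of them were measured by probe sets that name that gene alone. These 33 genes have 76 of the 41091 single-gene probe sets and are 33 of the 19775 genes measured in all. SLC16A1 and SLC16A3, which encode the lactate carriers MCT1 and MCT4, were listed too and are not analysed here, because no probe set was assigned to either gene alone in the annotation used. Expression was measured in 3 samples with 1 Affymetrix U133 Plus 2.0 array each: the neuroblastoma cell line NGP, the neuroblastoma cell line IMR-32, and a reference in which the RNA of 16 cancer cell lines was pooled. Both lines were untreated. The study describes amplification of MYCN, the neuroblastoma oncogene of the MYC family, in both.

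NGP cells were grown in RPMI 1640 with 10% fetal bovine serum and 2 mM glutamine. IMR-32 cells were grown in Minimum Essential Medium with 10% fetal bovine serum and 2 mM glutamine, to which sodium pyruvate (1%) and non-essential amino acids (1%) were added. The media of the pooled lines are not given in the sources used here. Pyruvate was thus added to the IMR-32 medium alone, and the cell line and its medium cannot be told apart in any difference between NGP and IMR-32. In a pool of 16 lines, fewer cells with a transcript and less of it per cell cannot be told apart either.

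Each glycolytic step is carried out by 1 or several isozymes, encoded by separate genes that are used to different degrees in different tissues. Hexokinase, phosphofructokinase and pyruvate kinase catalyse the steps that are irreversible in the cell, and lactate dehydrogenase regenerates the NAD+ that glycolysis needs when pyruvate is not passed to mitochondria. Cancer cells often take up much glucose and release lactate even when oxygen is present, and MYC family proteins and hypoxia-inducible factors (HIFs) are known activators of many of these genes.

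A value is the deposited MAS5 signal, an array brightness on a linear scale, and a ratio is the log2 of the signal in one sample over that in another. Genes with several probe sets were given their median ratio. Signals of different probe sets cannot be set against each other, so genes are compared by their ratios only. Signals below the median of their array (98.8 in NGP, 89.9 in IMR-32 and 119 in the pool) are called dim. A gene was called higher or lower when its ratio was among the highest or lowest 7% of those of all 19775 genes. The cut-offs were 1.84 and -2.88 for NGP over the pool, 1.68 and -2.83 for IMR-32 over the pool, and 1.95 and -1.84 for NGP over IMR-32. With 1 array per sample there is no replicate error and no p-value. As a measure of scatter, ratios of probe sets of the same gene had a standard deviation of 1.41 for NGP over the pool, 1.31 for IMR-32 over the pool and 1.28 for NGP over IMR-32, and of 1.09, 0.97 and 0.87 in the same order when dim probe sets were left out. A ratio of a gene with 1 probe set that is smaller than this cannot be told from probe set scatter.

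The labels were checked against marker genes. All 6 measured sympathoadrenal markers were called higher in NGP than in the pool, and 3 of 6 were in IMR-32 (PHOX2A, HAND2 and ISL1). Of the others in IMR-32, GATA3 lay above the pool (1.63) and was not called, and DBH (-0.33) and TH (-1.40) lay below it. The summed signals of the 6 markers were 59377 in NGP, 32602 in IMR-32 and 10862 in the pool. The epithelial markers EPCAM, CDH1, KRT8, KRT18 and KRT19 were called lower in both lines, with summed signals of 301 in NGP, 394 in IMR-32 and 65735 in the pool. Haematopoietic markers summed to 509 in NGP, 288 in IMR-32 and 456 in the pool, and skeletal muscle markers to 223, 204 and 356 on the same arrays. Of these, CD3D was called higher in NGP (143) than in IMR-32 (18.9, dim), at 2.92. Ratios over the pool therefore also set neuroblastoma cells against RNA that is partly epithelial, and the part of this in each ratio was not tested. The GAPDH control probe sets gave 3′ over 5′ ratios of 0.867 in NGP, 0.962 in IMR-32 and 1.02 in the pool, and those of ACTB 1.40, 1.16 and 1.37.

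The monocarboxylate carrier SLC16A7 and the neuronal enolase ENO2 were called higher in NGP than in the pool, which is 2 of 33 genes (6.06%) where 7% of all genes were called. The sugar transporter SLC2A10 was the 1 gene called lower in NGP than in the pool (3.03%, against 7% of all genes). In IMR-32, ENO3 was called higher than in the pool (1 of 33, against 7% of all genes) and SLC2A10 and ALDOC were called lower (2 of 33, against 7%). Between the lines, SLC16A7 was called higher in NGP than in IMR-32 (1 of 33, against 7%), and HK2 and, on dim signals alone, SLC2A10 were called lower (2 of 33, against 7%). These shares are close to or below those of all genes, so the calls are statements about single genes and not about the group. In all, 6 genes were called in at least 1 comparison, and 15 of the 33 lay within 2-fold in all 3 comparisons. The share of all genes was not computed for either count, so nothing about the group is read from them.

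**Figure D1:**
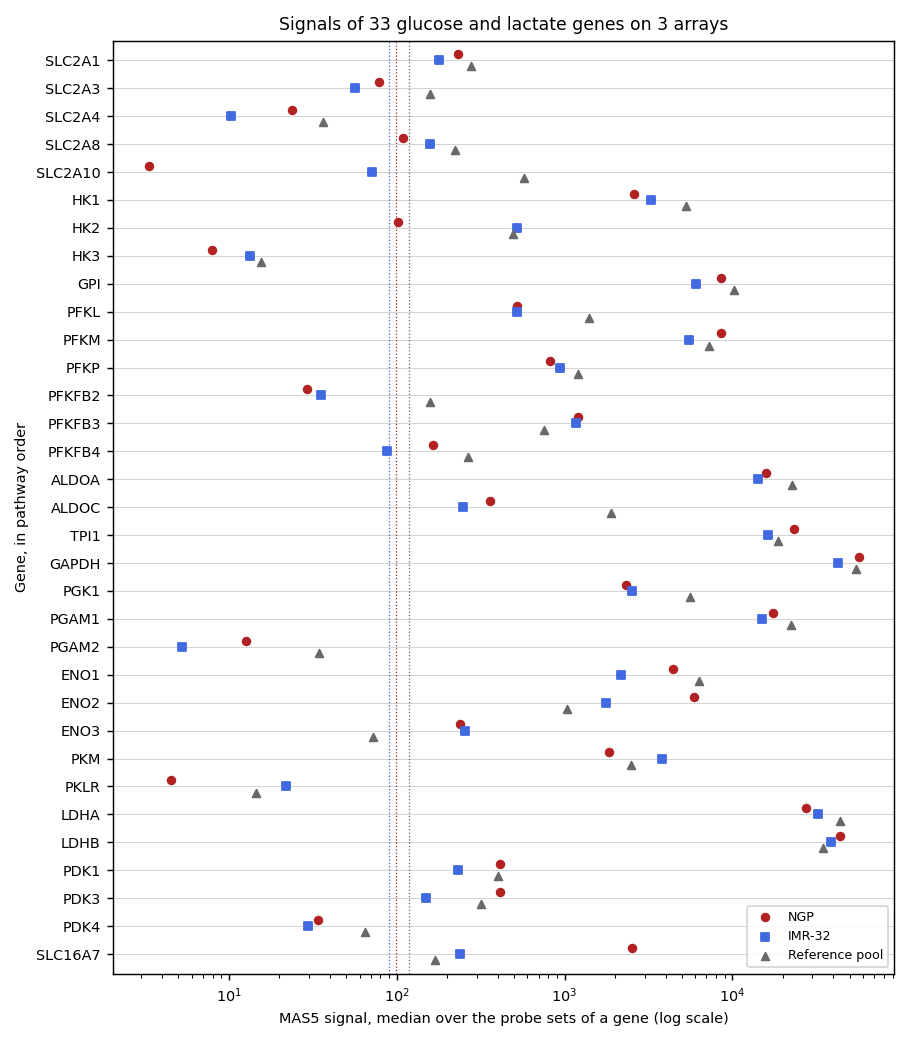
MAS5 signal of the 33 genes (the median where a gene has several probe sets, log scale) in NGP (red circles), IMR-32 (blue squares) and the reference pool (grey triangles), with genes in pathway order and the median signal of each array as a dotted line. Symbols are to be compared along a row and not between rows: SLC16A7 and ENO2 lie furthest to the right in NGP, HK2 lies to the left in NGP, and SLC2A10 and ALDOC lie to the left of the pool in both lines.

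As a group, the genes lay slightly below the pool. Their median ratio was -0.60 for NGP over the pool, where that of all genes was -0.22, and -0.63 for IMR-32 over the pool, where that of all genes was -0.23. Of the 33 genes, 9 had a ratio above 0 in NGP, where 42.3% of all genes did, and 8 had one in IMR-32, where 41.6% of all genes did. At the looser threshold of 2-fold, 3 of 33 were higher in NGP than in the pool (9.09%, against 15.4% of all genes) and 10 were lower (30.3%, against 27.1%). In IMR-32, 2 of 33 were at least 2-fold higher than in the pool (6.06%, against 14.4%) and 8 were at least 2-fold lower (24.2%, against 26.9%). Both sets of ratios share the pool array. Directly between the lines the median was 0.18 for NGP over IMR-32 (0.02 for all genes), and 20 of 33 genes were above 0 (50.8% of all genes). There, 5 genes were at least 2-fold higher in NGP (15.2%, against 17.2%), namely ENO1, ENO2, SLC16A7 and the dim SLC2A4 and PGAM2, and 4 were at least 2-fold lower (12.1%, against 15.9%), namely SLC2A10, HK2, PKM and PKLR.

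**Figure D2:**
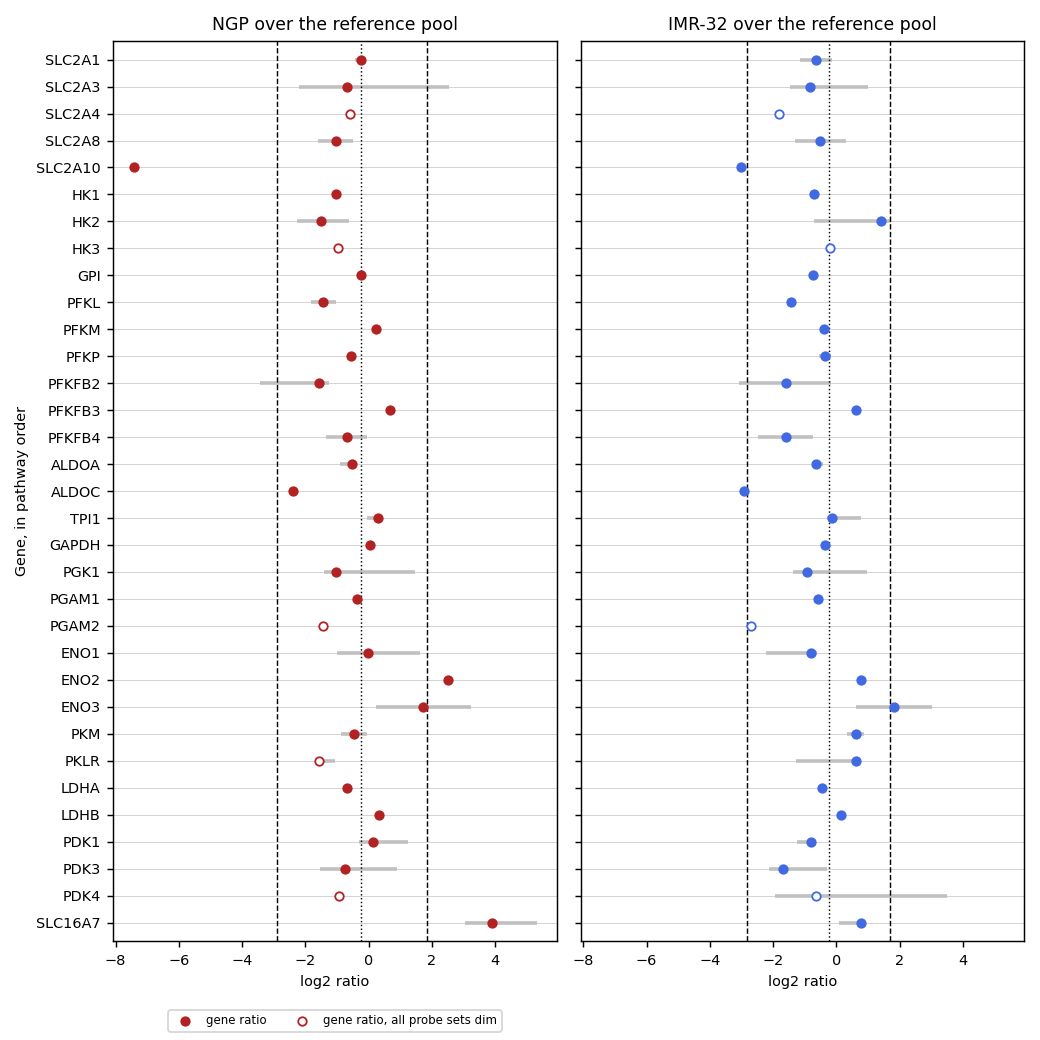
Log2 ratio of each gene in NGP over the reference pool (left panel) and in IMR-32 over the reference pool (right panel), with open points where all probe sets were dim on both arrays, grey bars for the range over its probe sets, dashed lines for the 7% cut-offs and a dotted line for the median of all genes. Most points lie between the cut-offs; SLC16A7 (3.90) and ENO2 (2.50) lie beyond the upper one in NGP, and ALDOC (-2.92) and SLC2A10 (-3.01) beyond the lower one in IMR-32.

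The promoter windows of 4 genes are shown because these were the called genes whose called ratio came from a probe set that was not dim in either line. Each window holds 300 bases around an annotated start, most of them upstream of it, and comes from RefSeq (GRCh38.p14), written 5′ to 3′ on the strand of the gene. Capitals mark matches to CACGTG, the E-box to which MYC family proteins bind, and to ACGTG or GCGTG, the core of HIF binding sites, both searched on both strands. The E-box contains ACGTG, so each E-box also counts as a HIF core. Of the 2 windows of HK2 the one with more matches is shown, and of the 2 of SLC16A7, which hold none, the one that starts first.
HK2 (chr2:74834920-74835219, plus strand): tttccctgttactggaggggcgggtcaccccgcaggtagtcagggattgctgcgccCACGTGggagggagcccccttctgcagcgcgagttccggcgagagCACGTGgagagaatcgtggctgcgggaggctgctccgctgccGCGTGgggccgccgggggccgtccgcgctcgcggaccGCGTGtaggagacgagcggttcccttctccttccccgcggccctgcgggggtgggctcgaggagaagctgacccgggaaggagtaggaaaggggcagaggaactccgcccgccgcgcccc
ALDOC (chr17:28576846-28577145, minus strand): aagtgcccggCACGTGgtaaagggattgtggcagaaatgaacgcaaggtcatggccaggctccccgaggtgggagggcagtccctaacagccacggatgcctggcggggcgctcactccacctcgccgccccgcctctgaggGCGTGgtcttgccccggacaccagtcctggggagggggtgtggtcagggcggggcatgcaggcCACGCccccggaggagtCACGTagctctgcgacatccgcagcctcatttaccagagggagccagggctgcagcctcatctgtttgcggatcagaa
ENO2 (chr12:6914330-6914629, plus strand): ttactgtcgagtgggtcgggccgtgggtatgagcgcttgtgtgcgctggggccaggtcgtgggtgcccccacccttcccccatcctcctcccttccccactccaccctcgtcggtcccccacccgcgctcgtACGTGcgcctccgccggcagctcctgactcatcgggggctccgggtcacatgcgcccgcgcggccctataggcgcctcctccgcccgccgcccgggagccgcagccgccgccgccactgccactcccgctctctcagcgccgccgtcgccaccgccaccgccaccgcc
SLC16A7 (chr12:59595779-59596078, plus strand): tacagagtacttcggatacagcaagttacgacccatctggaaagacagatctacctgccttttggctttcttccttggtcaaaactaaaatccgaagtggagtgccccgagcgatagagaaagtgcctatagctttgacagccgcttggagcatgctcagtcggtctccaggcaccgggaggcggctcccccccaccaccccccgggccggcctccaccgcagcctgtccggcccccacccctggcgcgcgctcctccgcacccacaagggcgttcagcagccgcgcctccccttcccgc

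The HK2 window holds 2 E-boxes and 2 further HIF cores, the ALDOC window 1 E-box and 3 further HIF cores, and the ENO2 window 1 HIF core and no E-box. Neither motif is present in the SLC16A7 window. Of the 33 measured genes, 30 were matched to 55 such windows. An E-box was present in 7 of the 55 windows (12.7%) and in 2548 of 35116 windows of all genes (7.26%), and a HIF core in 33 of the 55 (60.0%) and in 48.4% of all windows. These matches describe the letters only.

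Glucose enters cells through the GLUT carriers of the SLC2A family. SLC2A1, which encodes the widely expressed carrier GLUT1, had signals of 733 in NGP, 446 in IMR-32 and 985 in the pool with its brighter probe set. Its other probe set was dim on all arrays, with 73.2 in NGP, 70.9 in IMR-32 and 77.3 in the pool. The gene ratio was -0.25 in NGP and -0.63 in IMR-32 over the pool, and 0.38 between the lines, all smaller than the scatter between probe sets. SLC2A1 lies on the short arm of chromosome 1 within a stretch that the study lists as lost in IMR-32, and the part of this loss in its signal was not tested. SLC2A8, an intracellular carrier, was at -1.04 in NGP and -0.50 in IMR-32 over the pool. Its brighter probe set gave 226 in NGP, 392 in IMR-32 and 316 in the pool, so that the lines fell on opposite sides of the pool there.

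SLC2A10, which encodes GLUT10, a carrier of inner membranes, was the gene with the lowest ratio over the pool in each line. Its single probe set had a signal of 3.34 in NGP, 71.6 in IMR-32 and 575 in the pool. Both lines were thus dim and the pool was not. The ratios were -7.43 in NGP and -3.01 in IMR-32, and with dim signals set to the median of their array the signal was at least 5.82-fold lower in NGP and at least 6.39-fold lower in IMR-32 than in the pool. The call in IMR-32 was lost when dim probe sets were left out, with the brightest probe set of each gene and at the bottom 5%. The ratio between the lines, -4.42, rests on dim signals on both arrays and turned to 0.14 when these were set to the medians. No order between the lines can be read from it. SLC2A3, the neuronal carrier GLUT3, had 3 probe sets that ranged from -2.20 to 2.54 in NGP over the pool and from -1.48 to 1.00 in IMR-32 over the pool. All 3 can also bind transcripts of near-identical sequence, such as those of SLC2A14, and no direction is given. SLC2A4, the insulin-regulated carrier GLUT4, was dim on all 3 arrays.

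Hexokinases phosphorylate glucose and so trap it in the cell, and HK2, the inducible isozyme bound to mitochondria, separated the lines. Its probe set with the highest signals gave 1096 in NGP, 4483 in IMR-32 and 1693 in the pool. Another gave 101 in NGP, 302 in IMR-32 and 490 in the pool, and the last gave 55.9 (dim) in NGP, 520 in IMR-32 and 158 in the pool. NGP was the lowest of the 3 samples with every probe set, and IMR-32 was the highest with 2 of the 3. The ratio between the lines was -2.03 (range of probe sets -3.22 to -1.58), and HK2 was called lower in NGP than in IMR-32. The call was lost at the top and bottom 5% (cut-off -2.20) and with cut-offs taken from all probe sets (-2.14). Over the pool the gene ratio was -1.50 in NGP and 1.40 in IMR-32, neither of them past a cut-off. The value in NGP comes from the probe set that was dim there and was -0.63 with the brightest probe set, and 1 probe set put IMR-32 below the pool (-0.70).

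HK1, the constitutive isozyme, differed less. Its probe set had signals of 2583 in NGP, 3264 in IMR-32 and 5274 in the pool, which put NGP at -1.03 and IMR-32 at -0.69 over the pool, and NGP at -0.34 over IMR-32. The ratio of HK2 exceeded that of HK1 by 2.10 in IMR-32 over the pool, and fell short of it in NGP (difference -0.47). HK3, which is mainly known from white blood cells, was dim on all 3 arrays. GPI, the isomerase that makes fructose phosphate, had signals of 8600 in NGP, 6107 in IMR-32 and 10211 in the pool, a difference of less than 2-fold between any pair.

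Phosphofructokinase commits the sugar to glycolysis, and it has 3 subunit genes. PFKL, the liver-type subunit, was at -1.43 over the pool in NGP and at -1.43 in IMR-32. Its probe sets had signals of 384 and 711 in NGP, 549 and 498 in IMR-32, and 1360 and 1455 in the pool, so that both lines lay below the pool with each. PFKM, the muscle-type subunit, had signals of 8573 in NGP, 5549 in IMR-32 and 7238 in the pool, which put NGP at 0.24 and IMR-32 at -0.38 over the pool. The ratio of PFKM exceeded that of PFKL by 1.67 in NGP and by 1.04 in IMR-32. PFKM has 1 probe set, and its own ratios are smaller than the scatter between probe sets. For PFKP, the platelet-type subunit, the ratios were -0.55 in NGP and -0.36 in IMR-32, and its brighter probe set gave 4053 in NGP, 3914 in IMR-32 and 5721 in the pool. No subunit gene was called.

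PFKFB enzymes make and degrade the fructose bisphosphate that switches phosphofructokinase on. PFKFB3, whose product mostly makes it, had signals of 1201 in NGP, 1173 in IMR-32 and 755 in the pool, which put NGP at 0.67 and IMR-32 at 0.64 over the pool, both under 2-fold. PFKFB4 was at -0.70 in NGP and -1.61 in IMR-32 over the pool. Its brighter probe set gave 252 in NGP, 116 in IMR-32 and 643 in the pool, with the order pool, NGP, IMR-32. PFKFB2 was below the pool with each of its 4 probe sets in both lines, but its signals were dim with all 4 in NGP and with 3 of 4 in IMR-32.

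Aldolase splits the product of phosphofructokinase, which is a different fructose bisphosphate from the PFKFB product, into the trioses. ALDOC, the aldolase of brain, had a signal of 360 in NGP, 250 in IMR-32 and 1884 in the pool. Both lines were far below the pool and close to each other. The ratio was -2.39 (5.23-fold lower) in NGP, which missed the cut-off of -2.88, and -2.92 (7.55-fold lower) in IMR-32, which passed the cut-off of -2.83 narrowly. With the ratio unchanged, this call was lost when dim probe sets were left out (cut-off -3.13), with the brightest probe set of each gene (-3.01), at the bottom 5% (-3.28) and with cut-offs from all probe sets (-2.95). Between the lines the ratio was 0.53. ALDOA, the widely expressed aldolase, was at -0.52 in NGP and -0.65 in IMR-32, with brightest signals of 17597 in NGP, 14755 in IMR-32 and 23175 in the pool. The ratio of ALDOC was lower than that of ALDOA in both lines (difference -1.87 in NGP and -2.26 in IMR-32 over the pool).

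**Figure D3:**
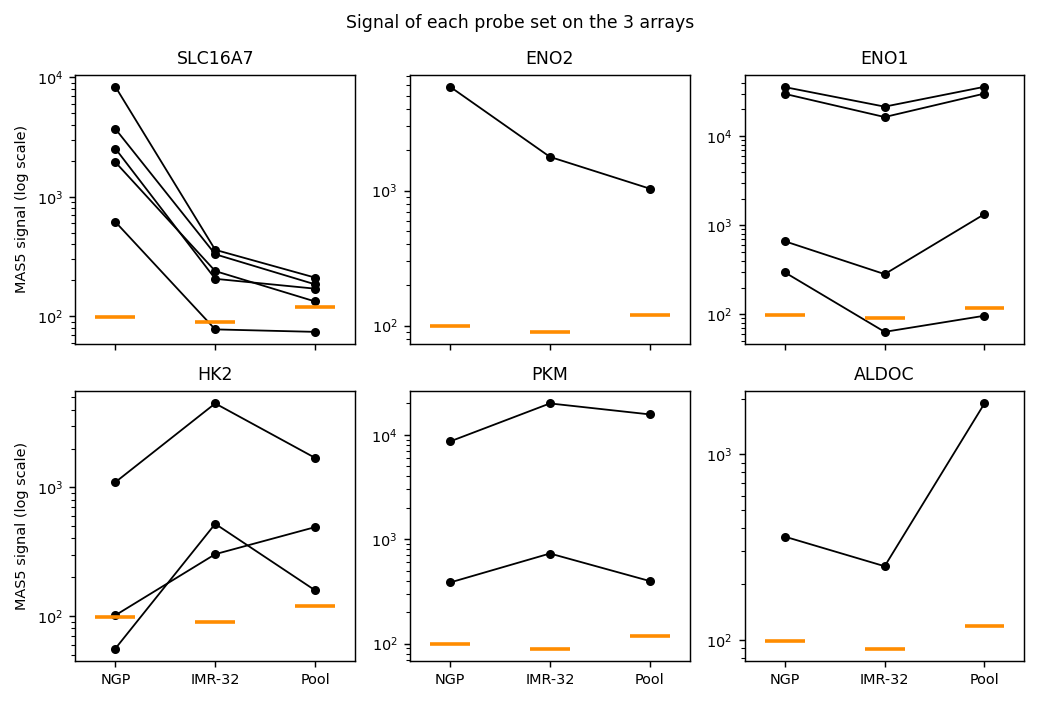
Signal of every probe set (log scale, 1 line per probe set) of SLC16A7, ENO2, ENO1, HK2, PKM and ALDOC in NGP, IMR-32 and the reference pool, with orange bars at the median of each array. All 5 probe sets of SLC16A7 were highest in NGP, all 3 of HK2 were lowest in NGP, and all 4 of ENO1 were lower in IMR-32 than in NGP.

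The lower pathway leads from the trioses to phosphoenolpyruvate. TPI1, which interconverts the trioses, was at 0.31 in NGP and -0.13 in IMR-32 over the pool, and GAPDH, which oxidises glyceraldehyde phosphate, at 0.05 and -0.37 in the same samples. GAPDH signals spanned 54802 to 57883 in NGP, 40689 to 43302 in IMR-32 and 50690 to 56006 in the pool over its 3 probe sets. All of these can bind related sequences. PGAM1, the mutase of most tissues, had signals of 17357 in NGP, 14933 in IMR-32 and 22448 in the pool. PGAM2, its muscle counterpart, was dim on all arrays.

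PGK1, the first step that yields ATP, was lower than in the pool by about the same amount in both lines, at -1.02 in NGP and -0.91 in IMR-32. Its brightest probe set gave 16953 in NGP, 16538 in IMR-32 and 30580 in the pool. With 5 of its 6 probe sets both lines were below the pool, and with the remaining 1 both were above it (292 in NGP, 209 in IMR-32 and 107, dim, in the pool). The lines did not differ from each other here by more than the scatter (-0.01). PGK1 was not called in any comparison.

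Enolase makes phosphoenolpyruvate. ENO2, the gamma or neuron-specific enolase used as a marker of neuroblastoma, had signals of 5870 in NGP, 1777 in IMR-32 and 1034 in the pool. The order was NGP, IMR-32, pool, with the widest gap between the lines. The ratio was 2.50 (5.68-fold) in NGP, past the cut-off of 1.84, and 0.78 (1.72-fold) in IMR-32, which is not. Between the lines it was 1.72 (3.30-fold), short of the cut-off of 1.95 and larger than the scatter between probe sets of 1.28. ENO2 has 1 probe set, so no other probe set checks this. The sympathoadrenal markers given above were also highest in NGP, and their part in the ENO2 signal was not tested.

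ENO1, the ubiquitous alpha enolase, was level with the pool in NGP (-0.01) and below it in IMR-32 (-0.81). Its bright probe sets gave 35626 and 29903 in NGP, 21497 and 16428 in IMR-32, and 35922 and 30144 in the pool. Of its other probe sets, 1 gave 662 in NGP, 283 in IMR-32 and 1336 in the pool, and 1 gave 296 in NGP and dim signals of 63.6 in IMR-32 and 96.6 in the pool. Each of the 4 was higher in NGP than in IMR-32, by 0.73 to 2.22, and the gene ratio was 1.04, which was not called. ENO1 also lies on the short arm of chromosome 1 in the stretch the study lists as lost in IMR-32, and the part of the loss in this difference was not tested. The ratio of ENO2 exceeded that of ENO1 by 2.52 in NGP and by 1.59 in IMR-32 over the pool.

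ENO3, the muscle enolase, was the gene called higher in IMR-32 than in the pool, but its probe sets did not give the same picture. The bright probe set had signals of 650 in NGP, 856 in IMR-32 and 556 in the pool, and its ratio over the pool was 0.23 in NGP and 0.62 in IMR-32. The other was dim on all arrays, with 87.9 in NGP, 76.8 in IMR-32 and 9.37 in the pool, and put NGP at 3.23 and IMR-32 at 3.04. The call at 1.83 in IMR-32 and the value of 1.73 in NGP rest on this dim probe set.

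Pyruvate kinase makes pyruvate and ATP. PKM, the gene of the muscle-type isoforms used by most tumour cells, was lower in NGP than in IMR-32 with both of its probe sets. They gave 8665 and 386 in NGP, 20026 and 731 in IMR-32, and 15722 and 398 in the pool. IMR-32 was the highest sample with each, and NGP the lowest. The ratio between the lines was -1.07 (probe sets -1.21 and -0.92), which is over 2-fold, not past the cut-off of -1.84. It is smaller than the scatter of 1.28 over all probe sets and larger than that of 0.87 without dim ones, and both PKM probe sets were bright on all arrays. Over the pool PKM was at -0.45 in NGP and 0.61 in IMR-32. The arrays do not separate its spliced isoforms here. PKLR, the liver and red cell enzyme, was dim in all but 1 of its 9 signals.

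**Figure D4:**
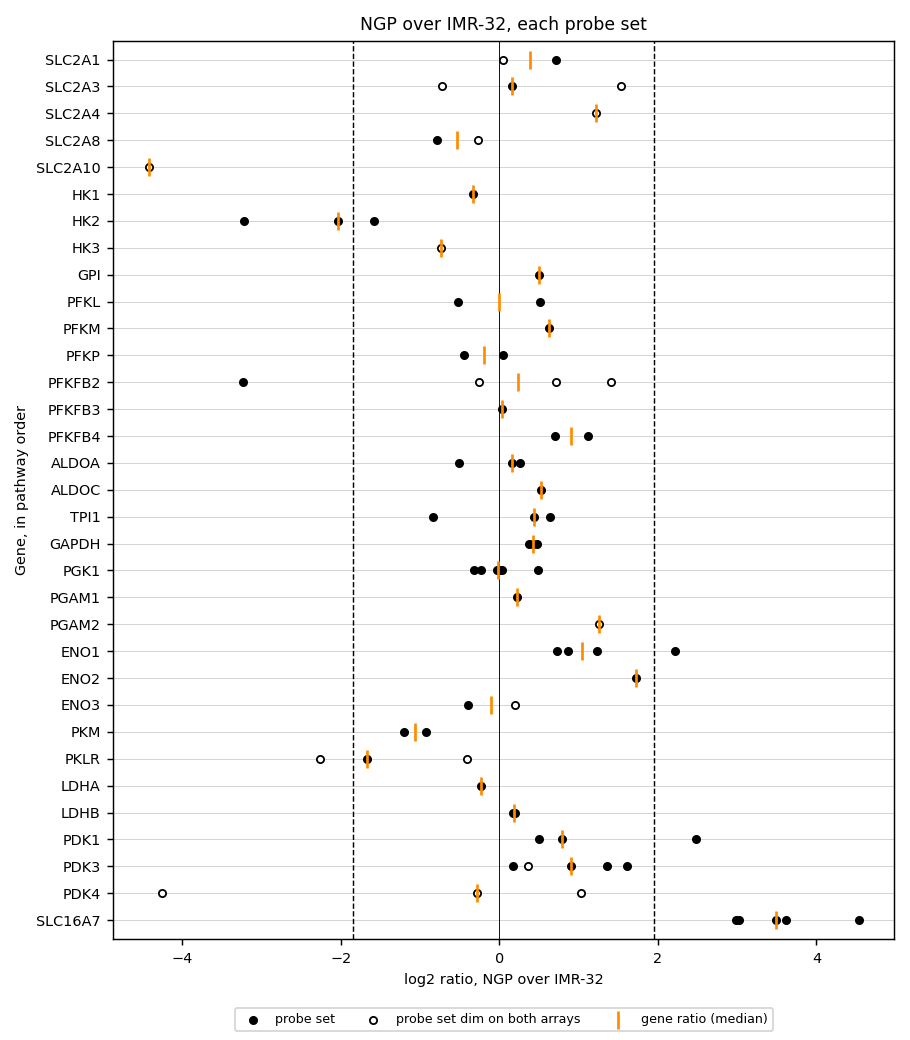
Log2 ratio of NGP over IMR-32 for each probe set (points, open where dim on both arrays) and the median of each gene (orange bars), with genes in pathway order and dashed lines at the 7% cut-offs of 1.95 and -1.84. SLC16A7 lies beyond the upper cut-off with all 5 probe sets, HK2 lies to the left with all 3, and most other genes cluster around 0.

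Lactate dehydrogenase converts pyruvate to lactate and back. LDHA, which favours the formation of lactate, had signals of 27407 in NGP, 32266 in IMR-32 and 44062 in the pool. LDHB, which favours its use, had signals of 46663 and 41187 in NGP, 41612 and 36043 in IMR-32, and 37773 and 32014 in the pool. Both lines were thus below the pool for LDHA (-0.68 in NGP and -0.45 in IMR-32) and slightly above it for LDHB (0.33 in NGP and 0.16 in IMR-32). The ratio of LDHB exceeded that of LDHA by 1.02 in NGP and by 0.60 in IMR-32. Each of these values is smaller than the scatter between probe sets, and neither gene was called.

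Pyruvate dehydrogenase kinases phosphorylate and inhibit the enzyme complex that turns pyruvate into acetyl-CoA. PDK1, a known HIF target, was at 0.12 in NGP and -0.79 in IMR-32 over the pool. Its brightest probe set gave 1556 in NGP, 902 in IMR-32 and 1427 in the pool, and all 3 of its probe sets were higher in NGP than in IMR-32 (0.50 to 2.48, gene ratio 0.79). PDK3 was likewise higher in NGP than in IMR-32 with 5 of 5 probe sets (0.17 to 1.61, gene ratio 0.90), the brightest of which gave 1595 in NGP, 853 in IMR-32 and 1038 in the pool. Over the pool PDK3 was at -0.76 in NGP and -1.69 in IMR-32. None of these values passed a cut-off, and PDK4 was dim on all arrays.

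Monocarboxylate transporters carry lactate, pyruvate and ketone bodies together with a proton. SLC16A7, which encodes MCT2, a carrier of high affinity known from neurons, had the highest ratio of the group. Its 5 probe sets gave 8335, 3699, 2529, 1947 and 615 in NGP. The same probe sets gave 359, 330, 205, 239 and 77.5 in IMR-32, and 210, 185, 170, 133 and 73.9 in the pool, where the last was dim in both. NGP lay above the other samples with each probe set, and IMR-32 lay slightly above the pool with each.

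The ratio of SLC16A7 was 3.90 in NGP over the pool (14.9-fold, probe sets 3.06 to 5.31) and 3.49 in NGP over IMR-32 (11.2-fold, probe sets 2.99 to 4.54), both past the cut-offs. It was 0.77 in IMR-32 over the pool. The gene lies on the long arm of chromosome 12 in a stretch that the study lists as amplified in NGP, and the copy number arrays were not analysed here. Of its neighbours on the chromosome, LRIG3, a membrane protein of the leucine-rich repeat family, had signals of 1926 in NGP, 361 in IMR-32 and 243 in the pool. It was called higher in NGP over the pool (2.99) and over IMR-32 (2.42). TAFA2, the neighbour on the other side, was dim on all 3 arrays. The part of copy number in the SLC16A7 signal was not tested.

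Of 19 measured genes among 22 further genes of glucose transport and glycolysis, 0 were called higher and 1 lower in NGP over the pool, 0 higher and 3 lower in IMR-32 over the pool, and 3 higher and 0 lower in NGP over IMR-32. Each of these counts stands beside 7% of all genes called at each end. TIGAR, a p53-induced phosphatase that lowers the fructose bisphosphate activator, had signals of 598 in NGP, 102 in IMR-32 and 1499 in the pool. Its ratio was -1.32 in NGP and -3.87 in IMR-32 over the pool and 2.55 between the lines, so that it was called lower in IMR-32 than in either other sample. The sugar carrier gene SLC2A11 was also called higher in NGP than in IMR-32, at 2.14 (3 of 3 probe sets, 1.23 to 3.03), and SLC2A12 was called higher there on signals that were dim in both lines. SLC2A12 was called lower in IMR-32 than in the pool as well, at -4.21 (probe sets -4.55 and -3.87), with signals dim in IMR-32 and not in the pool.

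Of 8 measured genes of pyruvate entry into mitochondria (the carrier and the pyruvate dehydrogenase complex) and 6 of the pentose phosphate pathway, 0 were called in any of the 3 comparisons. For these and the next list too, 7% of all genes were called at each end. Gluconeogenesis genes (7 of 7 measured) had 1 call lower in NGP over the pool and 1 lower in NGP over IMR-32, both of them PCK1, which was not bright in the pool or NGP (3.62 in NGP, 91.7 in IMR-32 and 46.7 in the pool).

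Of 13 measured hypoxia response genes, 2 were called higher and 2 lower in NGP over the pool, and 1 higher and 2 lower in IMR-32 over the pool. Among all genes 7% were called at each end. NDRG1, a stress-induced gene, was called lower in both lines, with signals of 121 in NGP, 263 in IMR-32 and 5407 in the pool (-5.48 in NGP and -4.36 in IMR-32). EPAS1, which encodes HIF2-alpha, was called lower too, at -3.40 in NGP and -4.11 in IMR-32. The demethylase gene KDM3A was called higher, at 2.28 in NGP and 2.01 in IMR-32. Its 2 probe sets gave 0.10 and 4.46 in NGP, and 0.51 and 3.51 in IMR-32. Of these probe sets, 1 was dim on all arrays and both can bind related transcripts, so each call is the midpoint of values that lie far apart. ADM, the peptide hormone adrenomedullin, had signals of 3964 in NGP, 197 in IMR-32 and 1048 in the pool. It was called higher in NGP than in the pool (1.92) and than in IMR-32 (4.33), the only hypoxia response gene called between the lines. Hypoxia response genes were thus called in both directions, and with 13 genes nothing about the group is read from these counts.

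Of the 3 MYC family genes, 0 were called higher and 1 lower in NGP over the pool, 1 higher and 1 lower in IMR-32 over the pool, and 1 higher and 0 lower in NGP over IMR-32. Here too 7% of all genes were called at each end, and 3 genes are too few to read a share from. MYC had a signal of 85.3 in NGP and 11.1 in IMR-32, both dim, against 22905 in the pool, and was called lower in both lines. Its call between the lines rests on these dim signals. MYCN was at 1.63 in NGP and 1.89 in IMR-32 over the pool, called higher in IMR-32 only, with 10 probe sets that ranged from -4.20 to 5.23 in NGP and from -4.60 to 3.62 in IMR-32, and 5 of them were dim on all arrays. In NGP, 7 MYCN probe sets lay above the pool and 3 below it, and in IMR-32 these counts were 8 and 2. The study reports MYCN as amplified and overexpressed in both lines. The gene ratio used here is a median that takes in the dim probe sets. The missing call in NGP therefore cannot be read as MYCN not being raised there. The pool held far more MYC signal than either line, and the part of this in the ratios over the pool was not tested.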

How the data were processed

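The authors deposited signal intensities, computed by MAS5 in the Bioconductor package affy. The package version is not given in these sources. The mean signal of each array is 500 once the 2% of signals at each end are trimmed. The 62 control probe sets, the 1801 with several gene symbols and the 11721 with none were left out, and 41091 remained, of which 41037 were matched to the reference table by gene ID. Each probe set gave a log2 ratio with no pseudocount, and genes took the median of their probe sets. MAS5 scales whole arrays, so a ratio is relative to the total signal, and ratios of dim signals are noisy. Genes in the top or bottom 7% were called, and with 1 array per sample no test was run.

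Samples were grouped by their labels (NGP, IMR-32 and the pool, 1 array each). The members, lists, markers and cell culture details were chosen with earlier results of these data known. All members were named. Signals were given for members called in at least 1 comparison, for SLC16A7 and, added after their values were seen, for others that show a step. Of other genes, those called and not dim were named. The 10 alternatives listed at the start were median centring, quantile normalization, log2(signal + 32), the brightest probe set, no dim probe sets, the mean of probe sets, no _s_at or _x_at probe sets, cut-offs over all probe sets, and 5% or 10% of genes. In 1 more, chosen after seeing the data, dim signals were set to the median of their array. The calculation of ratios and calls was checked on simulated signals with known changes. Their scatter was smaller than that between all probe sets here, so the check does not measure how reliable the calls are. The copy number arrays were not analysed here. Software versions were matplotlib 3.10.9, SciPy 1.17.1, pandas 2.3.3, numpy 2.4.6 and Python 3.11.15.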

Additional observations from a re-analysis of the deposited data

Results flagged for a closer look

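HK2, the inducible hexokinase, lay at least 2-fold from the pool in opposite directions in the lines, with a ratio of -1.50 in NGP and 1.40 in IMR-32 over the pool. The value in NGP comes from a probe set that was dim there. It was -0.63 with the brightest probe set and -0.68 with dim signals set to the array median, both under 2-fold. Each value comes from 1 array, and the difference between them was not tested.

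ADM, the adrenomedullin gene, had a ratio of 1.92 in NGP and -2.41 in IMR-32 over the pool. TH, which encodes tyrosine hydroxylase of catecholamine synthesis and is 1 of the sympathoadrenal markers, had a ratio of 4.01 in NGP and -1.40 in IMR-32 over the pool. Both were picked out for opposite directions in the lines, and neither difference was tested. ADM and TH have 1 probe set each.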

How the results depend on the processing

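Of 742 ratios of single genes under the alternatives, 700 moved by less than the SD between the probe sets of that gene (the pooled SD for genes with 1 probe set). Part of this count was fixed in advance. A mean and a median of the same values never differ by more than their SD, so all 99 ratios with the mean of probe sets had to pass. Genes with 1 probe set could not change with the mean or the brightest probe set. Genes whose probe sets disagree have a wide SD and pass more easily. The sign changed in 31 of the 742 ratios, of which 30 belong to genes not called in that comparison. The other is SLC2A10 in NGP over IMR-32, at 0.14 with dim signals set to the array median (chosen after seeing the data). In every setting with a value, 29 of 33 genes kept 1 sign in NGP over the pool, 28 in IMR-32 over the pool and 22 in NGP over IMR-32. SLC16A7 ranged from 3.37 to 4.54 in NGP over IMR-32, and HK2 kept its direction there but lost its call at 5% and with cut-offs from all probe sets. Median-centred ratios lie 0.22 (NGP) and 0.23 (IMR-32) higher over the pool. Counts of calls are small, and those that moved by over 1.5 times are these. In NGP over the pool, genes called lower were 2 with log2(signal + 32), 0 without _s_at and _x_at probe sets, 3 with dim signals set to the median and 2 at the top and bottom 10%. In IMR-32 over the pool, genes called higher were 0 without dim probe sets, with the brightest probe set, without _s_at and _x_at probe sets, at 5% and with cut-offs from all probe sets, and 2 at 10%. Genes called lower there were 0 without dim probe sets, with the brightest probe set and at 5%, 1 without _s_at and _x_at probe sets and with cut-offs from all probe sets, and 5 with dim signals set to the median. In NGP over IMR-32, genes called higher were 2 with log2(signal + 32), without dim probe sets, without _s_at and _x_at probe sets and at 10%, and 5 with dim signals set to the median, and genes called lower were 1 without _s_at and _x_at probe sets, at 5% and with cut-offs from all probe sets. Where a count held, the genes could still change. In IMR-32 over the pool, HK2 was called higher in place of ENO3 with log2(signal + 32) and with dim signals set to the median. Of 2 called lower in NGP over IMR-32, SLC2A10 gave way to PFKFB2 without dim probe sets and to PKM with dim signals at the median. SLC2A10 has only an _s_at probe set, so without _s_at and _x_at probe sets it had no value and could not be called. The cause of the other changes was not tested. No paired analysis was possible because each sample has 1 array. For the same reason no replicate could be left out, and the number of arrays limits the precision. Of the 33 genes, 12 have 1 probe set, 12 have only probe sets that can bind related transcripts, and 4 were dim on all arrays.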
